A study of Mus musculus with 6 samples.

Results

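Transcripts of 32 coagulation and fibrinolysis genes were followed in mouse liver, out of 55573 genes in the deposited table. The genes were taken by symbol, and all 32 had a row. They comprise the fibrinogen chains and fibrin cross-linkers, the vitamin K-dependent proteases and their cofactors, the contact system, vessel-wall receptors and inhibitors, and the plasminogen system. Values are FPKM, which scale reads by gene length and by the reads of the library, so levels of different genes can be compared per length. Of the 32 genes, 24 had a mean of at least 1 FPKM over the 6 libraries and were tested, and 8 lay below that level.

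The libraries came from liver of generation 3 mice on normal feed, with 3 libraries in each of 2 genotype groups. The control group, named DKO, carried mTR-/- (loss of the telomerase RNA gene) and Wrn-/- (loss of a RecQ helicase gene). The group named p21TKO carried p21-/- (loss of Cdkn1a, a cyclin-dependent kinase inhibitor gene) on top of those deletions. Both groups therefore share the mTR and Wrn deletions, and no library without them is used here. The stated aim was to find pathways that respond to loss of p21. Age and sex are not given by the labels, whose titles carry an unexplained code, 2M. Whether each replicate is its own animal is not said by the labels, so the tests speak of the spread among these libraries. Each group held libraries with and without Y-linked transcripts, and so more than 1 animal. In bulk liver, fewer cells of a type and less RNA per cell cannot be told apart.

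Blood clotting ends with thrombin cutting fibrinogen, a hexamer of paired alpha, beta and gamma chains, into fibrin. Thrombin is made by a cascade of proteases, most of them secreted by hepatocytes and many of them carboxylated by a vitamin K-dependent enzyme. Vessel-wall proteins such as thrombomodulin and tissue factor pathway inhibitor restrain the cascade, and plasmin, made from plasminogen, dissolves the clot. Fibrinogen is also an acute phase protein, whose genes respond to interleukin-6 in hepatocytes.

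Each FPKM value rested on a denominator of between 19363284 and 27061290 reads, and p21TKO replicates 2 and 3 stood apart from the other 4 libraries for many of the genes below. Cdkn1a stood at 0.76, 1.79 and 0.41 FPKM in DKO replicates 1 to 3 and at 1.41, 11.05 and 6.50 FPKM in p21TKO replicates 1 to 3. Its transcripts were thus present in the p21TKO libraries. Which exons were removed is not known from the labels, so these values do not check the deletion, and the groups are named by their labels throughout. Wrn was present in every library at 0.20 to 0.29 FPKM, and Terc, the telomerase RNA gene, was listed at 0 in these polyA RNA libraries. These values do not check the Wrn and mTR deletions either. Y-linked transcripts (Ddx3y, Eif2s3y, Kdm5d and Uty) were present in p21TKO replicate 1 and in DKO replicates 2 and 3 and at 0 elsewhere, so the groups differ in their mix of sexes. The defining hepatocyte markers were abundant, with Alb at 24412 to 26666 FPKM in DKO and 27220.2 to 37503 FPKM in p21TKO. Of 8 hepatocyte markers, 7 had a row under the listed symbol. They summed to 43529 to 52463 FPKM in DKO and 53012 to 59069 FPKM in p21TKO, and Alb was the largest part in every library. Of the 7, 3 had positive and 4 had negative differences (median -0.10), and Cyp2e1 (-1.03) and Apob (-0.67) were lower in every p21TKO library than in any DKO library, with 0 of the 7 passing the limma test. Mitochondrially encoded genes held 14.2% to 22.6% of the FPKM in DKO and 7.41% to 15.3% in p21TKO.

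The promoters of the fibrinogen chain genes and of Kng2 are shown first, because these genes had their highest values in the same libraries. The sequences are those of RefSeq on GRCm38.p6, from 250 bases before to 50 bases after the annotated start, 5′ to 3′ on the gene's strand. Capitals mark matches, on either strand, to a STAT motif (TTCNNNGAA), the core of an interleukin-6 response element (CTGGGAA) or a C/EBP motif (TTNNGNAA). Positions are counted from the annotated start, and no matches in these windows overlapped one another. The windows lie at chr3:83025903-83026202 (plus strand) for Fga, chr3:83049814-83050113 (minus strand) for Fgb, chr3:83007474-83007773 (plus strand) for Fgg and chr16:23029052-23029351 (minus strand) for Kng2.
Fga: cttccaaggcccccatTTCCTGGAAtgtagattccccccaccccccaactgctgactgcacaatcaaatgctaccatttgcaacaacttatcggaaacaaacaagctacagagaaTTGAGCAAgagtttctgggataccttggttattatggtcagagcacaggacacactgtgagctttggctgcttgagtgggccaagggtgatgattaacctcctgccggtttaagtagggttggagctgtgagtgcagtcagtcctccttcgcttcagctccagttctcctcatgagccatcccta
Fgb: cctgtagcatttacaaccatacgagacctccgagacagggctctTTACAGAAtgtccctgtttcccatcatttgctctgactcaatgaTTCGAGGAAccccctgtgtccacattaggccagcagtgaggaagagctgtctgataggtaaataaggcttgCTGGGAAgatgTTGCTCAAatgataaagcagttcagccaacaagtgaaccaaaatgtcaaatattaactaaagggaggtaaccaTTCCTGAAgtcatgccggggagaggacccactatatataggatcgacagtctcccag
Fgg: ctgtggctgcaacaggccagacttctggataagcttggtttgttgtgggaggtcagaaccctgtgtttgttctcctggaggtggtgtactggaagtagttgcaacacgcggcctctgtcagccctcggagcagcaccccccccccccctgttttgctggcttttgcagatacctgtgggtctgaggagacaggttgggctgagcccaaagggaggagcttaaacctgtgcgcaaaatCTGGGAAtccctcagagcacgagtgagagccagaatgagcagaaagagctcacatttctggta
Kng2: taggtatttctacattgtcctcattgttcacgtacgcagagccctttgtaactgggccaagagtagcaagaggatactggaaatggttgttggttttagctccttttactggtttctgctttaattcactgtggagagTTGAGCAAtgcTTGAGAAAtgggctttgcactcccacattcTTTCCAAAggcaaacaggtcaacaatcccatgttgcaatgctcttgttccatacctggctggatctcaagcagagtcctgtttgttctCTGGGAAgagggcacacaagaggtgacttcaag

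The Fga window held a STAT match from -234 to -226 and a C/EBP match, and the Fgb window held matches to all 3 motifs. The CTGGGAA core lay at -91 to -85 in Fgb, at -13 to -7 in Fgg and at 18 to 24 in Kng2. Promoters were matched for 24 of the 32 genes by symbol. Of these, 4 held the STAT motif (16.7%), against 8.3% of 32851 promoter windows of 300 bases. The CTGGGAA core was in 5 (20.8%, against 11.1%) and the C/EBP motif in 15 (62.5%, against 40.7%). The F9 window, like that of Fgb, held all 3 motifs, and F9 stood at 72.3 and 41.5 FPKM in p21TKO replicates 2 and 3 (log2 difference -0.30). The Hrg window held only the C/EBP motif, although Hrg was highest in those libraries. A match is only a match of letters in the window, and binding was not measured.

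None of the 24 tested genes passed the test between the genotypes with p-values adjusted over all 9538 genes tested (limma on log2(FPKM + 1), Benjamini-Hochberg). The smallest adjusted p was 0.523, and 0.0734% of all tested genes passed at 0.05. At an unadjusted limma p under 0.05 there were 2 members, Thbd with higher and Proz with lower values in p21TKO, which is 8.33% of those tested against 9.38% of all genes. The 3 p21TKO values lay wholly below the 3 DKO values for Proz, F11 and F5, and wholly above for no tested member, so 12.5% of the tested members had groups that did not overlap, against 15.4% of all tested genes. All of these shares lie near or below the background. An exact permutation test of 3 against 3 cannot give a two-sided p under 0.1. The median log2 difference of the tested members was 0.06, with 13 positive and 11 negative, and that of all tested genes was 0.0016. Thbd, with a DKO mean under 1 FPKM, was tested only because of its p21TKO values, and F3, with a p21TKO mean under 1 FPKM, only because of its DKO values.

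**Figure D1:**
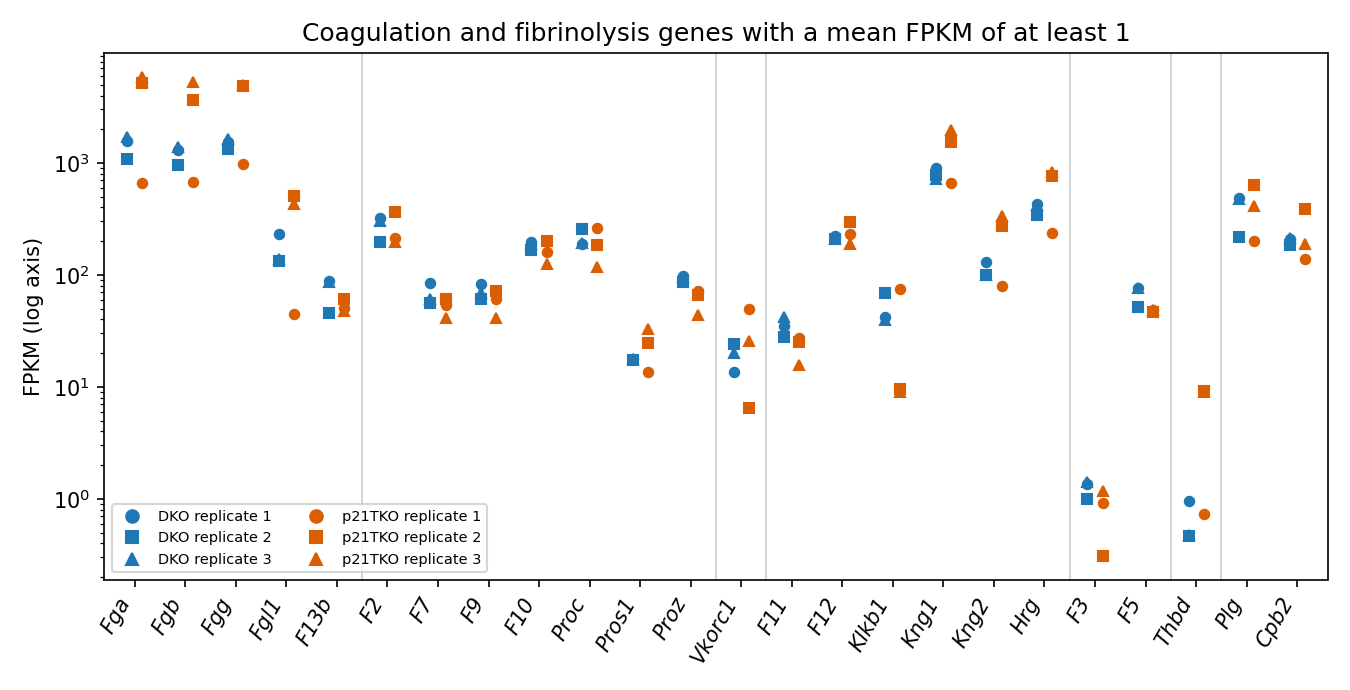
FPKM (log axis) of the 24 tested coagulation and fibrinolysis genes in each library, with DKO in blue, p21TKO in orange, 1 marker shape per replicate number and vertical lines between roles. Levels run from about 1 FPKM for F3 to over 5000 FPKM for fibrinogen chains in p21TKO replicate 3, and p21TKO replicates 2 and 3 lie apart from replicate 1 for the fibrinogen chains, Klkb1 and Thbd.

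One p21TKO library decided how the members were called. Without p21TKO replicate 1, 6 of the 24 members passed (25%), against 5.19% of all tested genes (495 of 9538) in the same fit. Fga, Fgb, Fgg, Kng2 and Thbd were higher and Klkb1 was lower in that comparison (limma adjusted p from 0.003562 to 0.03938). Thbd, with the smallest of these p-values, was tested only because of its values in p21TKO replicates 2 and 3, which that fit keeps. Its call there is therefore no independent result. Since Y-linked transcripts occurred within p21TKO in replicate 1 alone, its removal also sets the groups further apart in that respect. It lay below all 3 DKO libraries for 17 of the 24 genes (70.8%, against 27.3% of all tested genes) and above them for 4. p21TKO replicate 2 lay above the DKO libraries for 14 of the 24 (58.3%, against 30.0% of all genes) and below for 7 (29.2%, against 35.0%). For p21TKO replicate 3 the counts were 10 above (41.7%, against 34.9% of all genes) and 9 below (37.5%, against 36.6%), near the background.

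**Figure D2:**
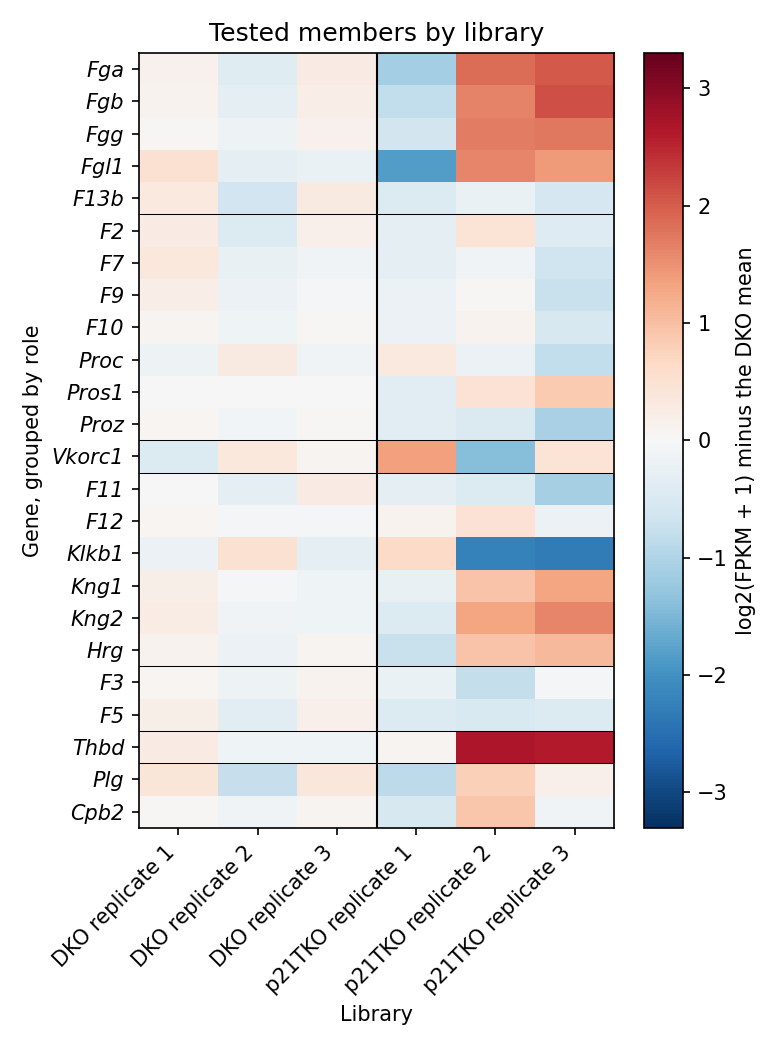
Colour map of log2(FPKM + 1) minus the DKO mean for the 24 tested genes (rows, grouped by role with lines between groups) in each library (columns), red for higher and blue for lower. p21TKO replicates 2 and 3 are red for the fibrinogen chains, the kininogens, Hrg and Thbd and blue for Klkb1, and p21TKO replicate 1 lies below all DKO libraries for 17 of the 24 genes.

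The fibrinogen chain genes were the most abundant members, and the p21TKO libraries held both their highest and their lowest values. They lie side by side on chromosome 3 (GRCm38), Fgg from 83007724 to 83015049, Fga from 83026076 to 83033627 and Fgb from 83040141 to 83049863. In DKO replicates 1 to 3, Fga (ENSMUSG00000028001), the alpha chain gene, had 1577, 1076 and 1717 FPKM. Its p21TKO values were 658, 5137 and 5859 FPKM. Fgb, the beta chain gene, stood at 1293, 949 and 1378 FPKM in DKO and at 675, 3684 and 5251 FPKM in p21TKO. For Fgg, the gamma chain gene, the values were 1528, 1340.3 and 1644 FPKM and then 983, 4814 and 5000.1 FPKM. For each chain, p21TKO replicate 1 was below every DKO library and p21TKO replicates 2 and 3 were above every one, so the groups overlapped. Gm30097 on the opposite strand covers 5.49% of the Fgg exon bases and stood at 0.113 FPKM or less. The means were 1457 ± 337 against 3885 ± 2817 FPKM for Fga (SD, n = 3 each), and the difference was 0.92 on the log2 scale (SE 0.85, adjusted p = 0.712 by limma). Fgb gave 0.98 (SE 0.77, limma adjusted p = 0.662) and Fgg 0.94 (SE 0.66, limma adjusted p = 0.630). Without p21TKO replicate 1 these differences were 1.94, 1.88 and 1.71 (limma adjusted p = 0.03195, 0.03447 and 0.02903).

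The chains together made up 0.488% to 4.19% of all FPKM in a library. Their share was 1.19%, 0.672% and 1.18% in DKO replicates 1 to 3 and 0.488%, 3.16% and 4.19% in p21TKO replicates 1 to 3. Among the 32 genes alone they held 52.6% to 57.7% of the FPKM in DKO and 46.2%, 71.2% and 75.9% in p21TKO. The balance between chains moved less than their level. The Fga to Fgg ratio was 1.03, 0.803 and 1.04 in DKO and 0.67, 1.07 and 1.17 in p21TKO, and the Fgb to Fgg ratio was 0.846, 0.708 and 0.838 in DKO and 0.687, 0.765 and 1.05 in p21TKO. In both ratios p21TKO replicate 1 was lowest and p21TKO replicate 3 highest, as for the level of the chains. The Fgb to Fgg ratio of p21TKO replicate 2 lay within the DKO range, although the chains there were above every DKO library.

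**Figure D3:**
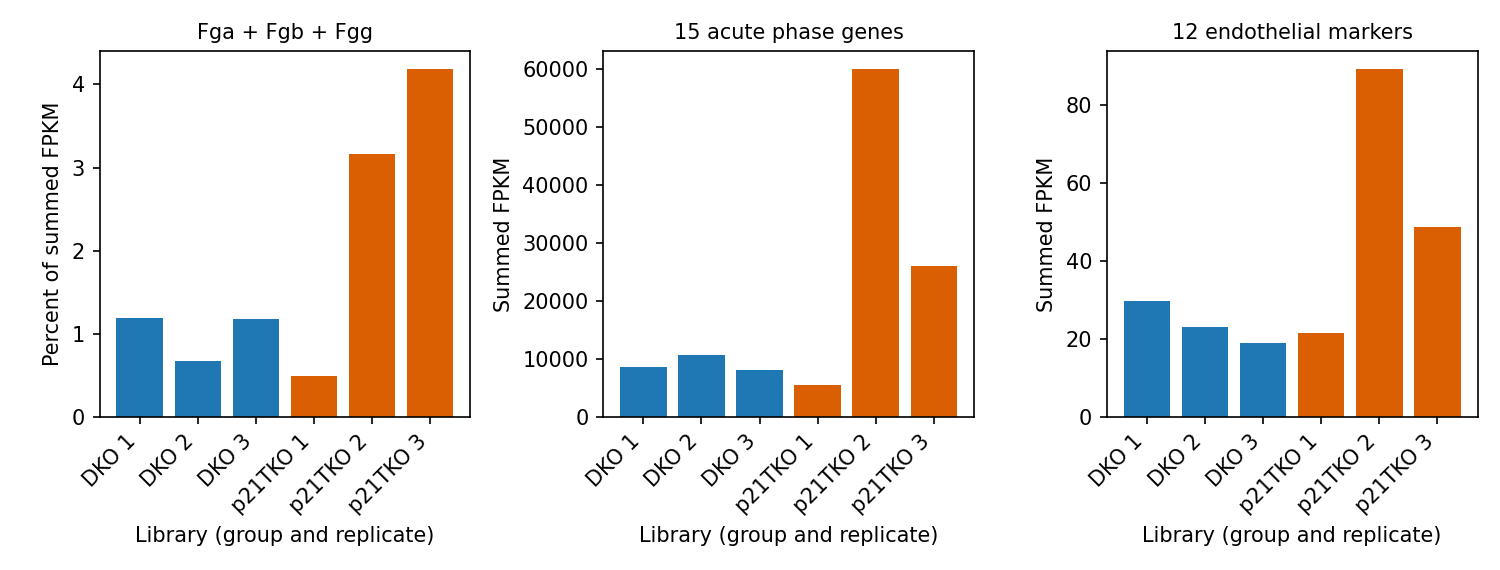
Bars from 0 for each library (DKO blue, p21TKO orange) of the share of summed FPKM held by Fga, Fgb and Fgg, the summed FPKM of 15 acute phase genes and the summed FPKM of 12 liver endothelial markers. p21TKO replicates 2 and 3 are the tallest bars in all 3 panels, and p21TKO replicate 1 is the shortest in the first and second.

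Summed acute phase genes were, like fibrinogen, lowest in p21TKO replicate 1 and highest in p21TKO replicates 2 and 3. The 15 genes of the list, all with a row and none at 0, summed to 8135 to 10618 FPKM in DKO and to 5508, 60065 and 26006 FPKM in p21TKO replicates 1 to 3. Among the most abundant were Hp (haptoglobin) at 18199 FPKM and Hpx (hemopexin) at 16345 FPKM in p21TKO replicate 2, and Orm1 at 9141 FPKM in p21TKO replicate 2 and 7354 FPKM in p21TKO replicate 3. The order of those libraries differed between the genes, since the chains were highest in p21TKO replicate 3 and the summed acute phase genes in p21TKO replicate 2. Saa1, Saa2 and Saa3 stood at 176, 86.0 and 3.18 FPKM in p21TKO replicate 3. These lay below DKO replicate 2 (399, 179 and 3.25 FPKM), while the other listed genes were above every DKO library there. All 15 had a positive log2 difference, 0 passed the limma test and 1 had an unadjusted p under 0.05. Neutrophil markers summed to 10.3 to 28.9 FPKM in DKO and to 24.2, 546 and 219 FPKM in p21TKO. The part of either in the fibrinogen values was not tested. Within the libraries without Y-linked transcripts (DKO replicate 1, p21TKO replicates 2 and 3) the log2 difference was 1.8 for Fga, 1.76 for Fgb and 1.68 for Fgg. Within those with them (DKO replicates 2 and 3, p21TKO replicate 1) it was -1.04, -0.76 and -0.59.

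Of the other genes in the fibrin group, Fgl1, which encodes a liver-secreted fibrinogen-like protein, was likewise lowest in p21TKO replicate 1 and highest in p21TKO replicates 2 and 3, and F13b was not. Fgl1 stood at 232, 133 and 140.03 FPKM in DKO and at 44.7, 502 and 429.9 FPKM in p21TKO, and the difference was 0.39 on the log2 scale (SE 0.91, adjusted p = 0.892 by limma). F13b, the carrier subunit of factor XIII, stood at 88.6, 45.4 and 86.5 FPKM in DKO and at 51.0, 60.7 and 47.9 FPKM in p21TKO (limma adjusted p = 0.666). F13a1, the catalytic subunit gene that cross-links fibrin, is made mainly outside hepatocytes and had 7, 1 and 9 reads in DKO and 4, 58 and 24 reads in p21TKO. Its highest value, in p21TKO replicate 2, was 0.375 FPKM, and it was not tested. Kupffer cell and macrophage markers (11 of 11 with a row, none at 0) summed to 55.0 to 126 FPKM in DKO and 41.7, 377 and 207 FPKM in p21TKO, in the same order as F13a1 within p21TKO. Their part in the F13a1 values was not tested.

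The vitamin K-dependent genes were spread more narrowly, and 6 of 7 had negative differences, none past the test. F2, the prothrombin gene, stood at 320.4, 196.5 and 302 FPKM in DKO and at 216, 363 and 197.2 FPKM in p21TKO. Both groups covered nearly the same range, and the difference was -0.10 on the log2 scale (SE 0.36, adjusted p = 0.938 by limma). Proz, which encodes protein Z, a cofactor for the inhibition of factor Xa, stood at 97.3, 86.5 and 94.9 FPKM in DKO and at 71.5, 66.5 and 44.0 FPKM in p21TKO. Its groups did not overlap, and the means were 92.9 ± 5.65 and 60.7 ± 14.7 FPKM (SD, n = 3 each). The log2 difference was -0.64 (SE 0.27, limma adjusted p = 0.523). Because the groups did not overlap, it had to be negative in any split of the libraries. It was -0.84 without Y-linked transcripts (DKO replicate 1 alone in its group) and -0.34 with them (p21TKO replicate 1 alone).

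Pros1, the gene of protein S, the cofactor of activated protein C, was the only vitamin K-dependent gene with a positive difference. It stood at 17.8, 17.3 and 17.6 FPKM in DKO and at 13.5, 24.6 and 33.0 FPKM in p21TKO, so p21TKO replicate 1 was below and the others above a narrow DKO range (log2 difference 0.33, limma adjusted p = 0.726). Proc, the protein C gene, stood at 187 to 257 FPKM in DKO and at 265, 184 and 119 FPKM in p21TKO. Here p21TKO replicate 1 was the highest library and p21TKO replicate 3 the lowest, the reverse of the order of the p21TKO libraries for Pros1. F7, F9 and F10, which encode the proteases of the extrinsic, intrinsic and common steps, had differences of -0.35, -0.30 and -0.20 (limma adjusted p from 0.659 to 0.807). For each of these the lowest library was p21TKO replicate 3, at 41.2, 41.5 and 126 FPKM.

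Of the 2 vitamin K cycle enzymes, which supply the carboxylation of these proteases, Vkorc1 was tested and Ggcx was not. Vkorc1, the vitamin K epoxide reductase and warfarin target, stood at 13.6, 24.3 and 20.1 FPKM in DKO and at 49.8, 6.48 and 26.0 FPKM in p21TKO. p21TKO replicate 1 was the highest and p21TKO replicate 2 the lowest of the 6 libraries, and the difference of 0.13 (SE 0.67, limma adjusted p = 0.955) turned negative without p21TKO replicate 1 (-0.48), DKO replicate 1 (-0.09) or p21TKO replicate 3 (-0.0252). Its annotated exons share 47.7% of their bases with Gm21974 on the same strand, which was listed at 0, so reads could have been lost there and the level is uncertain. Ggcx, the gamma-glutamyl carboxylase gene, stood at 0.44 to 0.92 FPKM in DKO and 0.28 to 0.47 FPKM in p21TKO, on 21 to 64 reads per library, and was not tested.

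In the contact system, which starts clotting on charged surfaces and releases bradykinin, Klkb1 was low and the kininogens were high in p21TKO replicates 2 and 3. Klkb1 (ENSMUSG00000109764, chromosome 8, 45266689 to 45294859, minus strand), the plasma prekallikrein gene, stood at 42.2, 69.2 and 39.2 FPKM in DKO and at 75.5, 9.53 and 9.06 FPKM in p21TKO. p21TKO replicate 1 was the highest library, while p21TKO replicates 2 and 3 were the lowest, on 1148 and 1287 reads. The log2 difference was -1.30 (SE 0.79, limma adjusted p = 0.593), and -2.27 without p21TKO replicate 1 (limma adjusted p = 0.01588). It was -2.07 among libraries lacking Y-linked transcripts and 0.53 among the others. The annotated exons share 43.2% of their bases with Gm45753, on the same strand and at 0.0316 FPKM or less, so part of its reads could have been left uncounted.

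Kng1 and Kng2 encode kininogens, from which plasma kallikrein frees bradykinin, and stood highest in the libraries where Klkb1 was lowest. Kng1 stood at 904, 775 and 718 FPKM in DKO and at 668, 1528 and 1972 FPKM in p21TKO (0.67 on the log2 scale, SE 0.46, adjusted p = 0.625 by limma). Kng2 stood at 130.0, 101 and 99.5 FPKM in DKO and at 80.1, 272 and 334 FPKM in p21TKO (0.82, SE 0.55, limma adjusted p = 0.614). Without p21TKO replicate 1 the Kng2 difference was 1.46 (limma adjusted p = 0.03938). The 2 genes are close copies, 91.8% identical over 1345 aligned bases, so reads could be divided between them and their separate values are uncertain. The Kng2 to Kng1 ratio was 0.144, 0.13 and 0.139 in DKO and 0.12, 0.178 and 0.17 in p21TKO.

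Hrg, which encodes histidine-rich glycoprotein, a plasma protein that binds plasminogen and heparin, had the kininogen pattern. It stood at 428, 346 and 419.6 FPKM in DKO and at 238, 767 and 829 FPKM in p21TKO (0.43 on the log2 scale, SE 0.52, adjusted p = 0.777 by limma). F11, the factor XI gene next to Klkb1 on chromosome 8, stood at 35.3, 27.9 and 42.3 FPKM in DKO and at 27.5, 25.0 and 15.6 FPKM in p21TKO. Its groups did not overlap, by a margin of under 1 FPKM between DKO replicate 2 and p21TKO replicate 1, and the log2 difference was -0.63 (SE 0.29, limma adjusted p = 0.531). The Klkb1 to F11 ratio ranged from 0.926 to 2.48 in DKO and was 2.75, 0.38 and 0.581 in p21TKO, so the neighbours did not keep a fixed balance. F12, the factor XII gene, had the smallest difference of the contact genes (0.13), at 209 to 223 FPKM in DKO and 188 to 297 FPKM in p21TKO (limma adjusted p = 0.878).

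**Figure D4:**
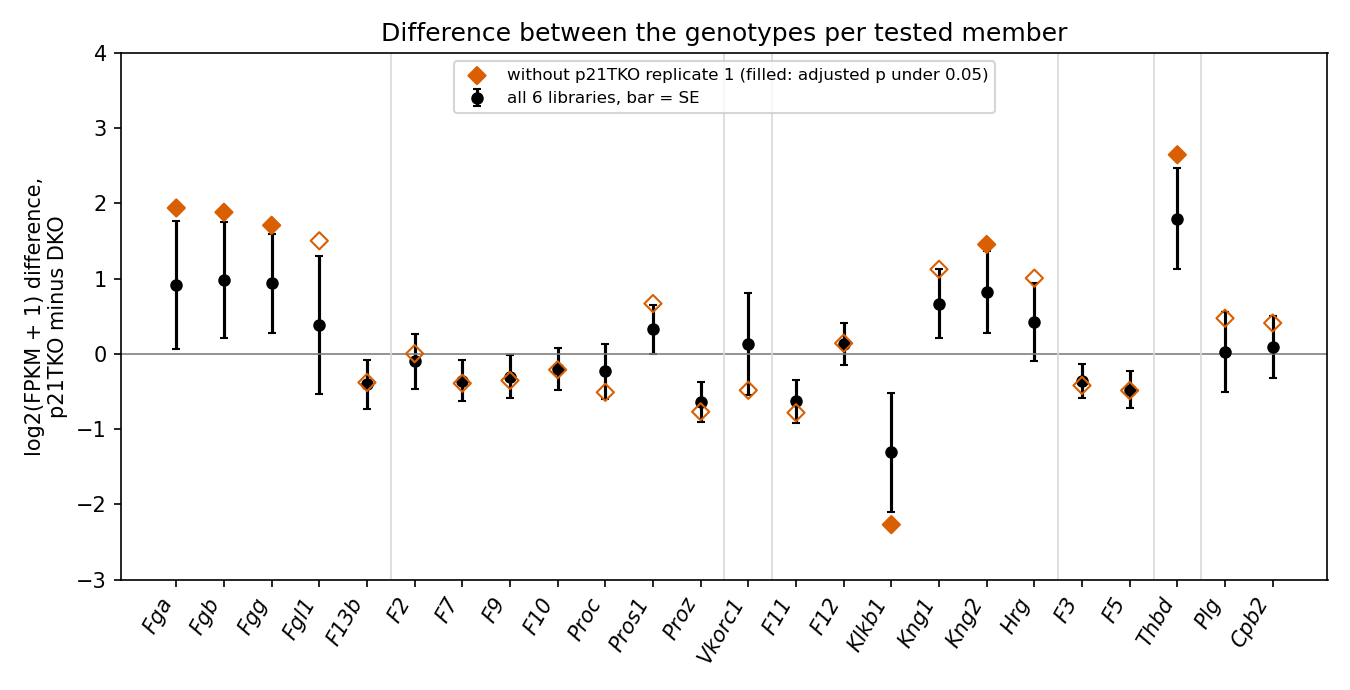
Log2(FPKM + 1) difference, p21TKO minus DKO, for the 24 tested genes, as black points with SE bars for all 6 libraries and orange diamonds without p21TKO replicate 1. Filled diamonds mark the 6 genes that passed in that second fit, Fga, Fgb, Fgg, Klkb1, Kng2 and Thbd, and no black point passed.

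Among the cofactors and initiators, F5 was the most abundant, with nearly equal values in the p21TKO libraries. F5, the factor V gene (chromosome 1, 164151838 to 164220277), stood at 77.1, 51.8 and 75.8 FPKM in DKO and at 48.6, 46.9 and 48.5 FPKM in p21TKO. The groups did not overlap, and DKO replicate 2 lay close to the p21TKO libraries (means 68.2 ± 14.3 and 48.0 ± 0.971 FPKM, SD, n = 3 each). The log2 difference was -0.48 (SE 0.24, limma adjusted p = 0.550). It was -0.68 without and -0.36 with Y-linked transcripts, a sign already fixed by the groups not overlapping. An antisense gene, Gm16548, covers 3.53% of the F5 exon bases and stood at 3.09 to 5.08 FPKM in DKO and 5.10, 0.782 and 0.995 FPKM in p21TKO. F3, the tissue factor gene that starts the extrinsic pathway, stood at 0.99 to 1.42 FPKM in DKO and at 0.92, 0.31 and 1.17 FPKM in p21TKO (log2 difference -0.36, limma adjusted p = 0.602), on 18 to 83 reads per library.

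F8 and Vwf, which encode factor VIII and its carrier von Willebrand factor, are endothelial products in liver and lay under 1 FPKM in every library. F8 stood at 0.58, 0.20 and 0.38 FPKM in DKO and at 0.15, 0.97 and 0.26 FPKM in p21TKO. Vwf stood at 0.311 to 0.515 FPKM in DKO and at 0.40, 0.62 and 0.64 FPKM in p21TKO, on 120 to 278 reads per library. For both genes the groups overlapped, F8 with its highest value in p21TKO replicate 2 alone.

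Thbd had the largest log2 difference of the tested members. It encodes thrombomodulin, the endothelial receptor that turns thrombin into an activator of protein C (chromosome 2, 148404466 to 148408188). The values were 0.961, 0.462 and 0.471 FPKM in DKO (86, 37 and 39 reads) and 0.735, 9.27 and 8.99 FPKM in p21TKO (53, 792 and 906 reads). p21TKO replicates 2 and 3 were far above every DKO library, and p21TKO replicate 1 lay within the DKO range. Thbd reached the tested level only through p21TKO replicates 2 and 3. The log2 difference was 1.8 (SE 0.68, limma adjusted p = 0.523), and 2.65 without p21TKO replicate 1 (limma adjusted p = 0.003562). It was 2.37 among libraries lacking Y-linked transcripts and 0.24 among the others. This scale understates changes of genes near 1 FPKM.

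The other vessel-wall anticoagulants were below the level tested. Procr, the endothelial protein C receptor gene, stood at 0.389, 0.183 and 0.155 FPKM in DKO (19, 8 and 7 reads) and at 0.127, 1.18 and 0.892 FPKM in p21TKO (5, 55 and 49 reads), in the order of Thbd within p21TKO. Tfpi, the tissue factor pathway inhibitor gene, stood at 0.373, 0.247 and 0.305 FPKM in DKO and at 0.454, 0.678 and 0.555 FPKM in p21TKO, on 29 to 85 reads. Its groups did not overlap, with all p21TKO values above. When every gene above 0 was tested, the adjusted p was 0.658 for Tfpi and 0.705 for Procr (limma), and no member passed.

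Summed liver endothelial markers were also highest in p21TKO replicates 2 and 3. The 12 markers, none at 0, summed to 18.9 to 29.7 FPKM in DKO and to 21.4, 89.2 and 48.6 FPKM in p21TKO replicates 1 to 3. Of the 2 most abundant, Eng stood at 4.76 to 9.25 FPKM in DKO and 9.53, 16.3 and 9.71 FPKM in p21TKO, and Clec4g stood at 3.81 to 6.12 FPKM in DKO and 2.54, 28.3 and 12.1 FPKM in p21TKO. All 11 tested markers had positive differences, 0 passed and 2 had an unadjusted limma p under 0.05. Thbd stood at 9.27 and 8.99 FPKM in p21TKO replicates 2 and 3, where the summed endothelial markers were 89.2 and 48.6 FPKM. Single markers differed unequally between p21TKO replicates 2 and 3, such as Stab2 (4.88 and 1.63 FPKM) and Egfl7 (4.91 and 3.81 FPKM). In p21TKO replicate 3, Stab2 alone of the listed markers lay below a DKO library (DKO replicate 1, 2.25 FPKM). The Kupffer cell and neutrophil sums given above were also highest in these libraries. Single Kupffer markers differed, with Clec4f, Cd5l and Adgre1 at 11.2, 15.8 and 0.970 FPKM in p21TKO replicate 3. These lay below DKO replicate 1 (20.1, 24.9 and 1.56 FPKM), while the other listed Kupffer markers were above every DKO library there. The part of these cells in the Thbd, Procr, Tfpi and Plat values was not tested. Platelet and megakaryocyte markers, of which Gp1bb was at 0 in all 6 libraries, summed to 1.40 to 5.04 FPKM in DKO and 2.51 to 3.22 FPKM in p21TKO.

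**Figure D5:**
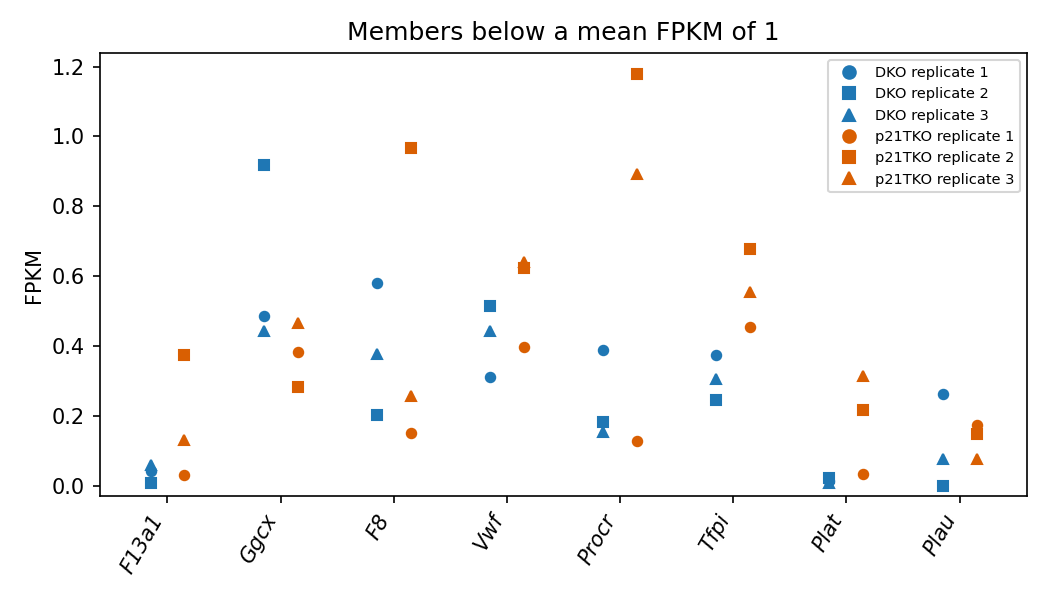
FPKM (linear axis) of the 8 members with a mean under 1 FPKM in each library, with DKO in blue and p21TKO in orange and 1 marker shape per replicate number. Procr, Plat and F13a1 have their highest values in p21TKO replicates 2 and 3, and for Tfpi and Plat all p21TKO points lie above all DKO points.

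In the fibrinolytic system, the hepatocyte-made precursor was abundant and its activators were scarce. Plg, the plasminogen gene (chromosome 17, 12378608 to 12419385), stood at 487, 217 and 475 FPKM in DKO and at 201, 637 and 413 FPKM in p21TKO. The groups covered nearly the same range, the log2 difference was 0.03 (SE 0.54, limma adjusted p = 0.990), and its sign changed with 3 of the libraries left out. The Plg to Fgg ratio was 0.319, 0.162 and 0.289 in DKO and 0.204, 0.132 and 0.0827 in p21TKO, so it was lowest in p21TKO replicates 2 and 3. Cpb2, which encodes the fibrinolysis inhibitor TAFI, a carboxypeptidase, stood at 208, 184 and 214 FPKM in DKO and at 138, 384 and 187 FPKM in p21TKO (0.09, limma adjusted p = 0.949). Only p21TKO replicate 2 was above the DKO range. Slc22a3 on the opposite strand covers 11.3% of the Plg exon bases and stood at 0.744 to 1.72 FPKM.

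Plat, the tissue plasminogen activator gene, had 2, 3 and 1 reads in DKO and 4, 31 and 53 reads in p21TKO, or 0.0072 to 0.0223 FPKM against 0.0331, 0.216 and 0.314 FPKM. All p21TKO values were above all DKO values, and p21TKO replicate 1 was closest to DKO. Plau, the urokinase gene, had 15, 0 and 4 reads in DKO and 8, 8 and 5 reads in p21TKO. The 0 in DKO replicate 2 allows up to 0.0589 FPKM (3 reads, counting error only), and no difference was detectable at this depth.

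Other genes of the pathway gave 0 calls. Of 30 inhibitors, receptors and processing factors on the list, 18 were tested, 11 with positive and 7 with negative differences, and the smallest adjusted p was 0.595 (limma), with 0 at an unadjusted p under 0.05. Their median log2 difference was 0.07. The 6 with the smallest p included Serpind1, the heparin cofactor II gene, at 186 to 244 FPKM in DKO and 185, 184 and 82.0 FPKM in p21TKO, with groups that did not overlap by a margin of under 1 FPKM (-0.63). Mcfd2, which acts with Lman1 in the secretion of factors V and VIII, stood at 62.7 to 63.6 FPKM in DKO and at 76.4, 94.5 and 72.1 FPKM in p21TKO, also without overlap (0.34). Anxa2, a receptor component for plasminogen and its activator, stood at 1.41 to 1.89 FPKM in DKO and 2.20, 4.33 and 1.49 FPKM in p21TKO (0.36). Tfpi2 (18.4 to 26.9 against 6.66 to 26.9 FPKM, -0.59) and S100a10 (42.7 to 52.2 against 47.0 to 68.6 FPKM, 0.23) had overlapping groups. Serpinc1, the antithrombin gene, stood at 186 to 231 FPKM in DKO and at 138 to 229 FPKM in p21TKO (limma adjusted p = 0.882).

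Transcription factors that act on these promoters in hepatocytes gave 0 calls among 8 tested. Hnf4a stood at 118, 137 and 147 FPKM in DKO and at 164, 158 and 151 FPKM in p21TKO, without overlap (log2 difference 0.23, limma adjusted p = 0.731). Stat3, which carries interleukin-6 signals, stood at 12.7 to 18.5 FPKM in DKO and at 9.88, 28.7 and 24.4 FPKM in p21TKO (0.36, limma adjusted p = 0.755). Within p21TKO its lowest library was replicate 1, as for the fibrinogen chains. Cebpa stood at 128 to 211 FPKM in DKO and at 175, 87.2 and 46.7 FPKM in p21TKO (-0.87, limma adjusted p = 0.580). Cebpb stood at 129.6, 364 and 113 FPKM in DKO and at 483, 102 and 98.1 FPKM in p21TKO. Its highest library was p21TKO replicate 1, where the fibrinogen chains were lowest. The part of these factors in the fibrinogen values was not tested. Cebpd stood at 4.07 to 10.9 and 8.34 to 11.6 FPKM. Foxa2 stood at 4.5 to 13.9 and 6.58 to 11.1 FPKM, and Onecut1 at 1.06 to 13.6 and 0.741 to 2.80 FPKM, all with overlapping groups.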

How the data were processed

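Liver polyA RNA of 6 libraries was profiled. TRIzol extraction and a NEBNext Ultra library kit were used, per the labels' protocols. The authors deposited 1 FPKM value per gene and library. The submitters' processing notes name HISAT2 2.0.5, DESeq2 1.20.0, fastp, featureCounts 1.5.0-p3 and CASAVA 1.8, in no given order. They give the builds as GRCh38 and hg38, which are human, although gene identifiers are those of mouse. The build and strand setting behind the values are therefore not settled. Coordinates are from GENCODE M21 (GRCm38), matched by identifier for 55480 of 55573 genes.

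FPKM were used as deposited. Genes with a mean of at least 1 FPKM entered limma 3.58.1 in R 4.3.3 as log2(FPKM + 1), with an intensity trend and two-sided p-values adjusted by Benjamini-Hochberg over all of them. The fit was checked on simulated data. Reads were recovered from FPKM and exon length, with 99.3% of values above 0 within 0.02 of a whole number. The kininogen transcripts were aligned with BLAST 2.17.0, and figures drawn with matplotlib 3.10.9 in Python 3.11.15.

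The members and lists were chosen with earlier results of these data known. All 32 members are reported, each library's values for those with an unadjusted p under 0.05 or groups that do not overlap, the fibrinogen chains, F2, Plg and the most abundant member of each role, with others added for context after their values were seen. Of the other pathway genes, those among the 6 with the smallest p are named, and Lman1 and Serpinc1 beside them. Some listed genes counted in the totals are not reported here by name. Alternatives were the pseudocount, the filter, scaling, the variance model, voom on recovered reads, a replicate block, a term for Y-linked transcripts, leaving out mitochondrially encoded genes, and leaving out each library.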

Additional observations from a re-analysis of the deposited data

How the results depend on the processing

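No member passed under any of the 9 settings that kept all 6 libraries, nor without any library other than p21TKO replicate 1. Leaving out each library gave 0 to 6 members called and 1 to 495 genes called over all genes, against 0 and 7 with all libraries. The counts over all genes without DKO replicates 1, 2 and 3 were 4, 6 and 1, and without p21TKO replicates 1, 2 and 3 they were 495, 2 and 3. Over all genes the count was 1 with no filter, 4 at a mean FPKM of at least 5, 1 with voom, 0 with the replicate block (limma, 588 at an unadjusted p under 0.05) and 12 without mitochondrially encoded genes. Deviations of same-numbered libraries correlated at -0.44, -0.49 and -0.07, and the replicate block left 0 members called. Same-numbered libraries always differed in the presence of Y-linked transcripts, so these correlations cannot show whether replicate numbers mark a pairing. The median member difference was -0.24 to 0.13 over these omissions, and -0.15 with the Y-linked term and -0.07 without mitochondrially encoded genes, where the median of all genes was -0.10. With the Y-linked term Fgl1 was -0.30, Plg -0.30 and Cpb2 -0.076. Without mitochondrially encoded genes Plg was -0.11 and Cpb2 -0.039, and the cause was not tested. Leaving out a library changed the sign for Fgl1 (-0.23 to 1.5), F2 (-0.37 to 0.069), Proc (-0.51 to 0.066), Vkorc1 (-0.48 to 0.90), F12 (-0.034 to 0.29), Plg (-0.36 to 0.48) and Cpb2 (-0.32 to 0.41). The other 17 tested members kept their sign under every setting that tested them, and F3 and Thbd were not tested at a mean FPKM of at least 5. For Proz, F11 and F5, leaving out a library could not change the sign, since their groups did not overlap. Depth limits Plau, Plat, F13a1, Procr and, among tested members, F3, which had under 20 reads in at least 1 library.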

Other observations

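Neighbouring members were compared after their values were seen. On chromosome 8 (GRCm38), F7, F10 and Proz lie in a row between 13026034 and 13076026 on the plus strand. The F7 to F10 ratio was 0.433, 0.332 and 0.326 in DKO and 0.336, 0.307 and 0.328 in p21TKO, so these neighbours held a nearly constant balance outside DKO replicate 1. The Proz to F10 ratio was 0.498, 0.517 and 0.505 in DKO and 0.444, 0.333 and 0.35 in p21TKO, below every DKO library in all 3 p21TKO libraries. On chromosome 16, Hrg, Kng2 and Kng1 lie between 22951072 and 23082078, and the Hrg to Kng1 ratio was 0.474, 0.446 and 0.585 in DKO and 0.355, 0.502 and 0.421 in p21TKO. These ratios are descriptions with no test. The F2 to Fgg ratio was 0.21, 0.147 and 0.184 in DKO and 0.219, 0.0755 and 0.0394 in p21TKO, lowest in the p21TKO libraries with the most fibrinogen transcript.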
